A study of Mus musculus with 4 samples.

Results

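The genes examined here are 9 regulators, cytokines and cytokine receptors of Th17 cells, the helper T cells that secrete interleukin 17. They are the transcription factor genes Rora, Ahr and Stat3, the cytokine genes Il17a and Il17f, and the receptor genes Il23r, Il1r1, Il6ra and Il6st. Members were the array probe sets that the platform annotation assigns to 1 of these genes alone, 24 of the 45037 probe sets that are not controls. They covered 7 genes, with 9 probe sets for Rora, 4 each for Il6st and Stat3, 2 each for Ahr, Il6ra and Il1r1, and 1 for Il17a. Il17f and Il23r had no such probe set and were not analysed here.

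RNA came from cultured mouse CD4+ T cells, the helper class, started as naive cells from spleen and from peripheral and mesenteric lymph nodes. The first group of 2 arrays came from cells given human TGFb1 at 1 ng/ml together with the steroid hormone progesterone at 2000 ng/ml, and the second group of 2 arrays from cells given the same TGFb1 alone. Both groups were grown for 7 days in RPMI medium with 10% serum and concanavalin A, at 2.5 ug/ml as the activating lectin. Mouse strain, age and number are not given in the sources used here, nor whether the replicates of a group came from separate cultures or animals. A p-value here therefore covers only how far these arrays differed, which may be technical variation.

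Th17 differentiation is the textbook counterpart of the regulatory T cell fate. TGFb with interleukin 6 directs naive CD4+ cells towards Th17, whereas TGFb with interleukin 2 favours regulatory cells. Interleukin 6 binds its receptor chain IL-6Rα, the product of Il6ra, and the pair engages gp130, the product of Il6st, whose JAK kinases phosphorylate STAT3. STAT3 and the nuclear receptors of the ROR family then activate Il17a, Il17f and Il23r, and the ligand-activated factor AHR and the interleukin 1 receptor add to the programme.

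The nuclear receptor RORα binds DNA at a core of the letters AGGTCA. In the RefSeq windows of GRCm38.p6 that run from 250 bases before to 50 bases after a gene start, 9 windows represented 8 of the 9 genes. The core, read on both strands, was in 3 of them, those of Il17a, Il17f and Il23r, and in 16.3% of all 32851 windows of 300 bases. These are the stretches around it, 5′ to 3′ along the gene, shown because these genes are the output of the programme, with the core or its reverse complement in capitals.
Il17a (chr1:20730773-20730802, plus strand): gtggttctgtgcTGACCTcatttgaggatg
Il17f (chr1:20784311-20784340, minus strand): cagtcagtaaggAGGTCAgtggaaacaggg
Il23r (chr6:67492067-67492096, minus strand): catgaccaccatTGACCTgtttgacttctt
Il23r (chr6:67491904-67491933, minus strand): aaatgaaaatgtAGGTCAgggctctgctga
A letter match is a description of the window and not a measurement of binding. The palindromic STAT core TTCNNNGAA was in 0 of the 9 windows and in 8.30% of all windows. A degenerate form of the palindromic steroid receptor element, which the progesterone receptor binds, was in 0 of the 9 and in 0.475% of all.

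The interleukin 6 receptor chains, STAT3, AHR and RORα genes were measured above background, Il17a and Il1r1 were not, and no probe set of the members passed the test between the groups. Signals were MAS5 intensities, quantile normalised over the arrays, and a probe set was tested if its mean lay above the median of all, 24.8. That left 18 of the 24, from Rora, Ahr, Il6ra, Il6st and Stat3, each of them above that median in the mean of both groups. The other 6, both of Il1r1, the one of Il17a and 3 of Rora, lay under it in both groups and are called near background. For scale, 71 probe sets of 42 genes of other tissues, such as liver, muscle and retina, had a median signal of 8.24, a 90th percentile of 42.5, and 81.7% under the median of all. By that wider mark 2 tested probe sets, 1450695_at of Ahr and 1458129_at of Rora, were also dim.

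**Figure D1:**
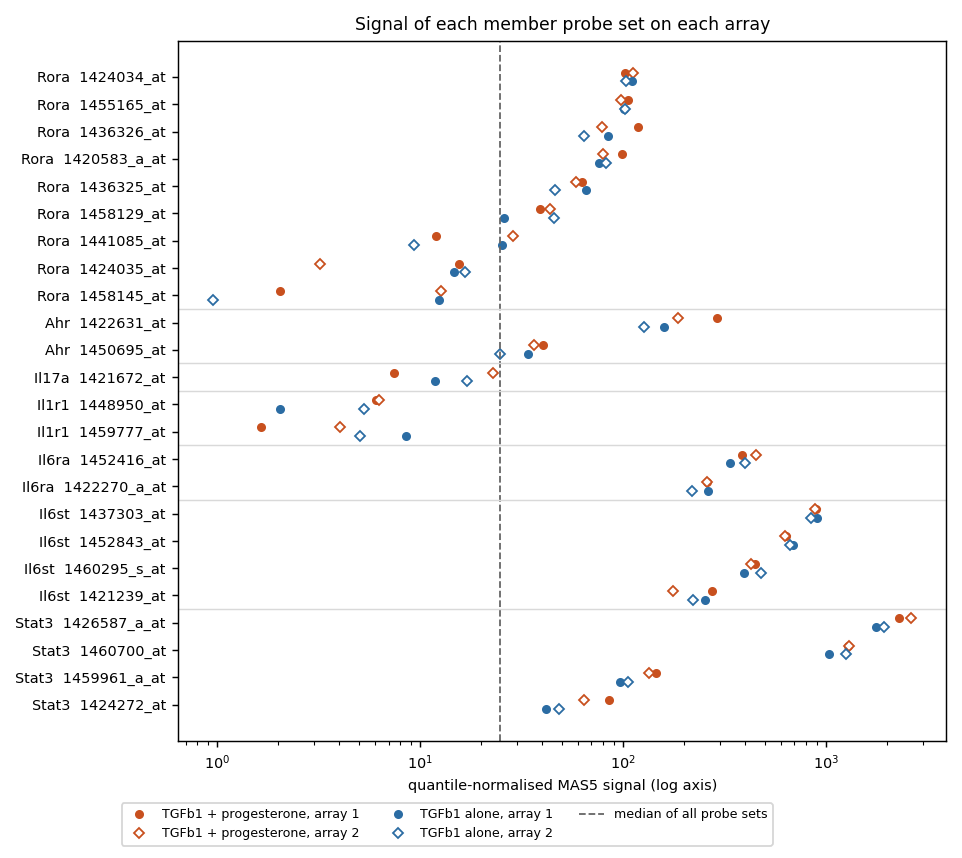
Quantile-normalised signal (log axis) of the 24 probe sets on each of the 4 arrays, with TGFb1 plus progesterone in orange and TGFb1 alone in blue. The dashed line is the median of all probe sets, 24.8, and the probe sets of Il17a and Il1r1 and 3 of Rora lie around or under it.

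No member probe set passed limma's test at an adjusted p of 0.05, 0 of 18, where 1383 of 22518 tested probe sets (6.14%) passed, 541 up (2.4%) and 842 down (3.74%). With no filter on level 0 of the 24 passed, against 539 of 45037 (1.2%). At an unadjusted p under 0.05 there were 4 of 18, against 21.4% of all tested probe sets. Of the 18, 15 were higher and 3 lower with progesterone, with a median log2 difference of 0.15, where the median of all tested probe sets was 0.027. Groups did not overlap for 6 higher and 1 lower probe set, 7 of 18, where 53.3% of all tested probe sets separated, 29.2% upward and 24.1% downward. On the deposited scale 8 members were higher and 10 lower, with a median of -0.078 against -0.16 for all. There 3 members separated upward and 3 downward, against 13.9% and 37.9% of all tested probe sets. All differences here are log2(signal + 16), TGFb1 plus progesterone minus TGFb1 alone, with the standard error or 95% interval that limma gave from 2 arrays a group. This scale understates the change of dim probe sets.

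The arrays differed in overall signal and in markers of other cell types. Trimmed mean signals as deposited ran from 108.3 to 155.4, with the lowest on progesterone array 2, and arrays of a group correlated at r = 0.983 (progesterone) and 0.980 (TGFb1 alone), across probe sets, which are not independent replicates. T helper markers had summed signals of 28132 and 28698 in the progesterone arrays and 28221 and 29878 with TGFb1 alone, and 0 of the 8 tested passed limma, with 3 at an unadjusted p under 0.05. Of 12 tested myeloid markers 11 were higher and 3 rose (Lyz2, S100a8 and Ctss), with summed signals of 4359 and 5098 in the progesterone arrays and 3064 and 2443 with TGFb1 alone. Of 6 tested mast cell and basophil markers 1 rose (Kit), with sums of 1391 and 1761 against 1715 and 1156. Both tested markers of gamma delta T cells and innate lymphoid cells rose (Id2, and Kit by the same probe set as in the mast cell list). Summed list signals were 951 and 1037 in the progesterone arrays and 586 and 619 with TGFb1 alone. In that list Zbtb16, Ncr1 and Sox13 (higher) and Klrb1b (lower) lay under the level filter. Both tested NK markers were lower, at an unadjusted p under 0.05 but with no call, with list sums of 248.5 and 268.9 in the progesterone arrays and 411.9 and 489.3 with TGFb1 alone. Of 2 tested B cell and 2 tested CD8 markers 0 passed and 0 had an unadjusted p under 0.05, and the 1 tested stromal and endothelial marker, Pecam1, fell. Of 4 tested X-inactivation and Y-linked genes 1 rose and 3 fell. Xist was at 1390 and 825 in the progesterone arrays and 9.52 and 9.70 with TGFb1 alone as deposited, and the Y-linked gene Eif2s3y at 4.25 and 0.492 against 689 and 727. This is the pattern of female cells in the progesterone arrays and male cells with TGFb1 alone, so sex and treatment cannot be told apart. Fewer cells of a type and less RNA per cell cannot be told apart in bulk RNA. The part of these differences in the values below was not tested.

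Il6ra, which encodes the interleukin 6 binding chain, did not pass the test. Its brighter probe set, 1452416_at, had normalised signals of 384.9 and 450.7 in the progesterone arrays, against 338.2 and 399.7 with TGFb1 alone. The second, 1422270_a_at, had 260.1 and 258.9 in the progesterone arrays, against 262.1 and 219.7 with TGFb1 alone. The groups overlapped in both probe sets. Their differences were 0.17 ± 0.14 (SE, limma adjusted p = 0.531) and 0.11 ± 0.15 (adjusted p = 0.720), and the intervals in folds ran from 0.896 to 1.42 and from 0.853 to 1.36. With the values as deposited both were lower, at -0.14 and -0.16.

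Il6st, which encodes gp130, the signalling chain shared by interleukin 6 and its relatives, had 4 tested probe sets and none that passed. Probe set 1437303_at had normalised signals of 890.8 and 887.6 in the progesterone arrays, against 907.5 and 849.4 with TGFb1 alone. It differed by 0.018 ± 0.10 (SE), with a fold interval of 0.862 to 1.19 and a limma adjusted p = 0.943. Probe set 1452843_at was at 634.9 and 627.8 in the progesterone arrays, against 690.4 and 663.9 with TGFb1 alone, the one tested member whose progesterone arrays both lay below both TGFb1 arrays. Its difference was -0.098 ± 0.11 (adjusted p = 0.639). Probe set 1460295_s_at was at 448.3 and 429.6 in the progesterone arrays, against 397.03 and 479.6 with TGFb1 alone. Probe set 1421239_at was at 274 and 177 in the progesterone arrays, against 253 and 222 with TGFb1 alone. The groups overlapped in both, with differences of 0.0078 (adjusted p = 0.982) and -0.097 (adjusted p = 0.830). As deposited all 4 were lower, from -0.31 to -0.45. The median of all tested probe sets, dim and bright, was -0.16 there. The 8 T helper markers, also bright, were all lower as deposited, from -0.24 (Cd3d) to -0.77 (Cd4). In 3 of the 4 Il6st probe sets both progesterone arrays as deposited lay below both TGFb1 arrays, where 37.9% of all tested probe sets separated downward. No setting gave any of its probe sets an adjusted p under 0.05.

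Stat3, the transcription factor that interleukin 6, 21 and 23 receptors activate, came nearest to a call. All 4 of its probe sets were higher after normalisation, and in all 4 both progesterone arrays lay above both TGFb1 arrays. Of all tested probe sets 29.2% separated upward in this way, and probe sets of the same gene on the same arrays are not independent. The brightest, 1426587_a_at, had normalised signals of 2301 and 2644 in the progesterone arrays, against 1764 and 1946 with TGFb1 alone. That is a difference of 0.41 ± 0.10 (SE), a 1.33-fold level with an interval of 1.13 to 1.56, and a limma adjusted p = 0.0529. As deposited the same probe set read 2231 and 1948 in the progesterone arrays, against 2132 and 2127 with TGFb1 alone, where the groups overlapped and the difference was -0.031. The separation of this probe set was absent from the deposited signals and present after normalisation.

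The 2 dimmest Stat3 probe sets separated upward on both scales. As deposited 13.9% of all tested probe sets separated upward. Probe set 1459961_a_at had normalised signals of 145 and 134.5 in the progesterone arrays, against 97.3 and 105.7 with TGFb1 alone, a difference of 0.41 ± 0.16 (SE, adjusted p = 0.196). As deposited it was at 150.1 and 111.7 in the progesterone arrays, against 103.1 and 109.5 with TGFb1 alone, so its lowest progesterone value lay just above the TGFb1 values. Probe set 1424272_at had normalised signals of 85.3 and 64.3 in the progesterone arrays, against 41.7 and 48.3 with TGFb1 alone, a difference of 0.57 ± 0.21 (adjusted p = 0.181). It was at 90.9 and 56.1 as deposited in the progesterone arrays, against 41.3 and 47.4 with TGFb1 alone. The remaining probe set, 1460700_at, had normalised signals of 1288 and 1301 in the progesterone arrays, against 1037 and 1258 with TGFb1 alone. It differed by 0.18 ± 0.11 (adjusted p = 0.416), and by -0.23 as deposited. The bright and dim probe sets of the gene disagreed in direction as deposited, 2 higher and 2 lower. For the brightest probe set the difference was 0.33 without TGFb1 replicate 1 and 0.49 without TGFb1 replicate 2. It was 0.51 without progesterone replicate 1 and 0.31 without progesterone replicate 2. The calls that follow are only those from fits to all 4 arrays without the replicate number as a block. This probe set passed with a robust variance model (limma adjusted p = 0.0497) and with 1 probe set per gene (adjusted p = 0.0468). The latter setting was chosen after seeing the data. It did not pass at a common trimmed mean (0.27, adjusted p = 0.141) or with median centring (0.15, adjusted p = 0.373). Nor did it pass with no filter (adjusted p = 0.150) or with no intensity trend (adjusted p = 0.219), and its adjusted p was 0.960 on the deposited scale. In the fit to the deposited values limma's prior degrees of freedom were infinite, so p-values on that scale rest on the intensity trend and not on the spread of the probe set itself.

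**Figure D2:**
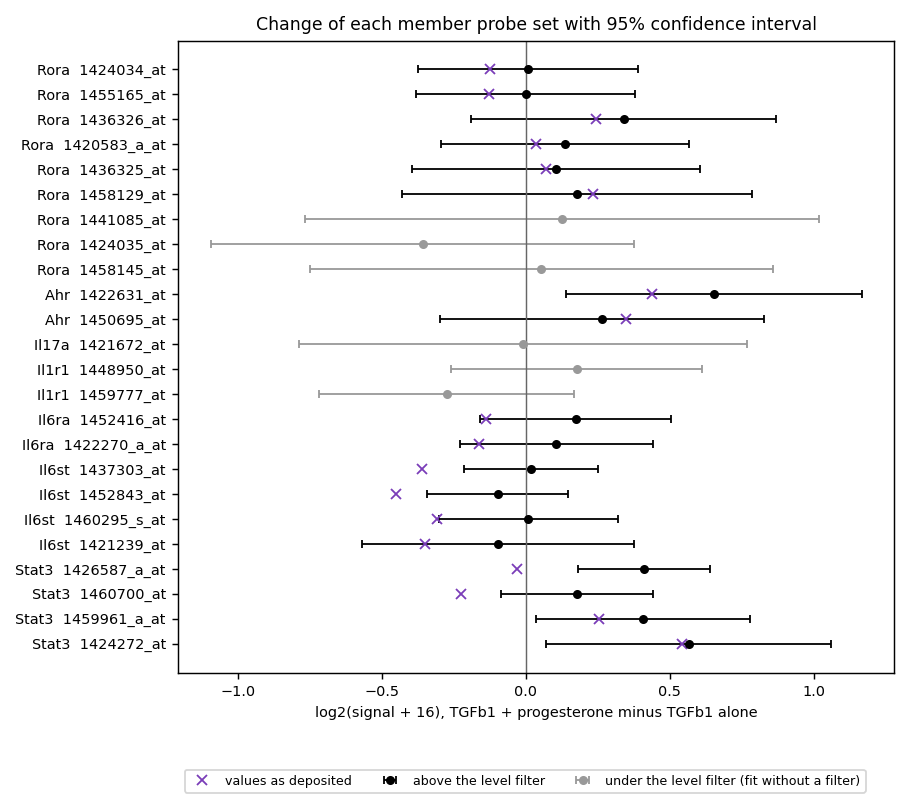
Log2 difference of each probe set, TGFb1 plus progesterone minus TGFb1 alone, with its 95% interval from limma (black, tested; grey, under the level filter, from the fit without a filter). Purple crosses give the tested probe sets with the values as deposited, where the crosses of Il6st all lie left of 0 and those of Stat3 on both sides.

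The Stat3 window is shown because the gene came nearest to a call. Of the motifs searched, only the AHR core GCGTG matched in it, once, just after the gene start and in capitals. That core is in 5 of the 9 member windows and in 32.4% of all windows, either strand.
Stat3 (chr11:100939491-100939790, minus strand): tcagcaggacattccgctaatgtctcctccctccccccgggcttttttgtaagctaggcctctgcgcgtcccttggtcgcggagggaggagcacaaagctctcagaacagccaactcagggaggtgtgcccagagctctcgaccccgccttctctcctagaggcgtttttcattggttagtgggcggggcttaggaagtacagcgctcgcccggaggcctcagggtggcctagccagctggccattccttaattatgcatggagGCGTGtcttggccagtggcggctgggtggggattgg

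Ahr, the receptor for aromatic compounds that also raises interleukin 22, was higher in both of its probe sets without passing. Probe set 1422631_at had normalised signals of 292.4 and 186.3 in the progesterone arrays, against 160.2 and 127.1 with TGFb1 alone. The difference was 0.65 ± 0.22 (SE), a 1.57-fold level with an interval of 1.10 to 2.24 (limma adjusted p = 0.140). This exceeded the other members' differences in the main setting. Stat3 1424272_at was above it as deposited (0.54 against 0.44), at a common trimmed mean (0.77 against 0.71) and with median centring (0.73 against 0.62). The same held with a pseudocount of 0 (0.72 against 0.71), without progesterone replicate 1 (0.41 against 0.35) and without TGFb1 replicate 2 (0.63 against 0.50). As deposited the groups of 1422631_at overlapped, with 294.8 and 151.6 in the progesterone arrays against 174.1 and 133.1 with TGFb1 alone. Progesterone replicate 1 had the highest signal of the 4. Without that array the difference was 0.35 (adjusted p = 0.503), and without progesterone replicate 2 it was 0.98 (adjusted p = 0.123). Probe set 1450695_at, near the dim end, was at 40.4 and 36.4 in the progesterone arrays, against 34.1 and 24.9 with TGFb1 alone, a difference of 0.26 ± 0.24 (adjusted p = 0.574). Both probe sets were higher in every setting run.

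**Figure D3:**
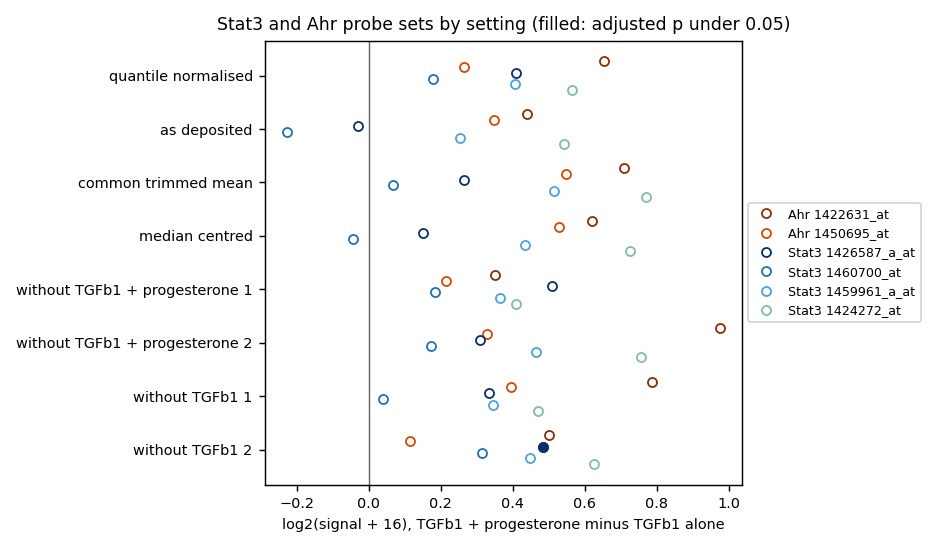
Log2 differences of the Ahr and Stat3 probe sets, TGFb1 plus progesterone minus TGFb1 alone, by scaling and with each array left out. Filled points have a limma adjusted p under 0.05, and the 2 brightest Stat3 probe sets cross 0 as deposited.

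Rora encodes RORα, a nuclear receptor that drives Th17 genes. Its 6 tested probe sets ranged in difference from -0.00074 to 0.34, all with overlapping groups and limma adjusted p of 0.439 to 0.998. The brightest, 1424034_at, had normalised signals of 102.6 and 112.5 in the progesterone arrays, against 110.5 and 103.1 with TGFb1 alone. The next, 1455165_at, had 105.4 and 98.1 in the progesterone arrays, against 100.9 and 102.7 with TGFb1 alone. The groups overlapped in both, with differences of 0.0086 ± 0.17 and -0.00074 ± 0.16 (SE) and fold intervals of 0.772 to 1.31 and 0.767 to 1.302. Probe set 1436326_at was at 119.1 and 79.1 in the progesterone arrays against 84.2 and 64.02 with TGFb1 alone (0.34 ± 0.23, adjusted p = 0.439). That value was 0.089 without progesterone replicate 1, 0.61 without progesterone replicate 2, 0.49 without TGFb1 replicate 1 and 0.17 without TGFb1 replicate 2, so single arrays decide its size. Probe set 1420583_a_at was at 99.2 and 79.5 in the progesterone arrays, against 76.7 and 82.2 with TGFb1 alone, a difference of 0.14. Probe set 1436325_at was at 62.6 and 59.1 in the progesterone arrays, against 65.8 and 46.5 with TGFb1 alone, a difference of 0.10. The overlap of groups in both came from arrays of 1 group that differed by more than the group means. The dim but tested 1458129_at was at 39.2 and 44.0 in the progesterone arrays, against 26.0 and 45.6 with TGFb1 alone, a difference of 0.18, which was -0.096 without TGFb1 replicate 1 and 0.45 without TGFb1 replicate 2.

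The 3 Rora probe sets near background gave no steady reading. Probe set 1441085_at was at 12.0 and 28.6 in the progesterone arrays, against 25.3 and 9.39 with TGFb1 alone. Probe set 1424035_at was at 15.6 and 3.22 in the progesterone arrays, against 14.7 and 16.6 with TGFb1 alone. Probe set 1458145_at was at 2.05 and 12.7 in the progesterone arrays, against 12.4 and 0.959 with TGFb1 alone. The groups overlapped in all 3. In the fit without a filter their intervals reached from -1.09 to 1.02 on the log2 scale.

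Il17a, the signature cytokine of Th17 cells, stayed in the range of background on all 4 arrays. Its probe set 1421672_at had normalised signals of 7.47 and 22.8 in the progesterone arrays, against 11.9 and 17.2 with TGFb1 alone, all below the median of 24.8. In the fit without a filter its difference was -0.010, with an interval of -0.79 to 0.77 (adjusted p = 0.995). At that level no direction can be read.

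Il1r1, the signalling receptor for interleukin 1, was dimmer still. Probe set 1448950_at had 6.04 and 6.30 in the progesterone arrays, against 2.05 and 5.31 with TGFb1 alone. Probe set 1459777_at had 1.64 and 4.03 in the progesterone arrays, against 8.54 and 5.08 with TGFb1 alone. The groups separated in opposite directions in the 2 probe sets, with differences of 0.18 (adjusted p = 0.729) and -0.28 (adjusted p = 0.588) in the fit without a filter. All of these signals lay under the median of 8.24 for genes of other tissues except one reading of 8.54.

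Genes around the members were read from lists of pathway partners, each gene by its brightest tested probe set. Of 14 tested other Th17 genes 1 rose and 2 fell, with a median of -0.058. Maf, the factor c-Maf, rose by 2.73 ± 0.16 (SE), and 5 of its 6 tested probe sets rose. Irf4 had 2 tested probe sets, and the dimmer one was at -0.37 with no call. Batf and Irf4, partner factors that open Th17 gene regions, changed by -0.71 ± 0.12 (limma adjusted p = 0.0138) and -0.51 ± 0.10 (adjusted p = 0.0227). Neither passed when either progesterone array was left out, with adjusted p of 0.136 and 0.110 for Batf and 0.179 and 0.206 for Irf4 without replicate 1 and replicate 2. Ccr6, a chemokine receptor of Th17 cells, had 34.9 and 68.2 in the progesterone arrays against 3.80 and 17.6 with TGFb1 alone (1.35 ± 0.36, adjusted p = 0.0767). It passed the level filter through the progesterone arrays, and it was called at a common trimmed mean and with median centring. Il17ra, an interleukin 17 receptor gene, was lower (-0.37 ± 0.12, adjusted p = 0.126) and was called lower in those same settings. Rbpj was higher (0.40 ± 0.12, adjusted p = 0.0999) and was called in neither. The cytokine genes Il21, Il23a, Il10, Ccl20 and Csf2 lay under the level filter.

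In the list of partners of the interleukin 6 receptor and STAT3, 2 of 13 tested genes rose and none fell, with a median of 0.19. Socs3, the feedback inhibitor that binds gp130 and that STAT3 itself induces, was at 1638 and 1748 in the progesterone arrays, against 988 and 613 with TGFb1 alone. It rose by 1.10 ± 0.19 (SE, limma adjusted p = 0.0163), and all 3 of its tested probe sets rose, by 0.70 to 1.10. As deposited its groups still did not overlap, with 1576 and 1287 in the progesterone arrays against 1168 and 663 with TGFb1 alone, but it did not pass there (0.68, adjusted p = 0.107). It did not pass either without progesterone replicate 1 (adjusted p = 0.0943) or replicate 2 (adjusted p = 0.153). Stat5a, which opposes STAT3 at Il17a in mouse T cells, rose by 0.54 ± 0.12 (adjusted p = 0.0360) but was at 0.16 as deposited (adjusted p = 0.787). It did not pass at a common trimmed mean (0.45, adjusted p = 0.0603), with median centring (0.34, adjusted p = 0.143), with no filter (adjusted p = 0.0974) or with no intensity trend (adjusted p = 0.149). It also did not pass when TGFb1 replicate 1, progesterone replicate 1 or progesterone replicate 2 was left out (adjusted p of 0.0760, 0.244 and 0.186). Stat5b, its close copy, was at 0.19 (adjusted p = 0.517), and whether the Stat5a probes also read it was not tested. The receptor gene Il27ra was higher with no call, at 0.55 ± 0.14 (adjusted p = 0.0658), and at 0.16 as deposited. The kinase genes Jak1, Jak2 and Tyk2, which act under gp130, were at 0.16, 0.033 and 0.27 with no call. Il6 itself, Lifr, Osmr and Cntfr lay under the level filter.

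Of 11 tested genes known as STAT3 targets 1 rose and 2 fell, and their median was 0.0070. Socs3 is the one that rose. Pim1, a survival kinase, was at 801 and 734 in the progesterone arrays, against 1935 and 2456 with TGFb1 alone, and fell by 1.49 ± 0.13 on the log2 scale (SE, limma adjusted p = 0.00143). It passed in every setting run, and both its probe sets fell. Batf is the second that fell. Fos was at 59.9 and 73.1 in the progesterone arrays and at 117 and 875 with TGFb1 alone, with the second TGFb1 array far above the first (-2.06 ± 0.71, adjusted p = 0.145). Bcl3 and Mcl1 were higher with no call, at 0.36 (adjusted p = 0.124) and 0.25 (adjusted p = 0.150), and at 0.035 and -0.15 as deposited. Of the 11 genes, 6 were higher and 5 lower.

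The AHR list had 4 tested genes of 8 with a probe set, all 4 higher and 0 passing limma (1 at an unadjusted p under 0.05), with a median of 0.47. Of its genes under the level filter, Cyp1b1, Arnt2 and Nqo1 were lower (-0.57, -0.24 and -0.15) and Aldh3a1 higher (0.18). Ahrr, the AHR repressor and a direct AHR target, had 54.4 and 67.1 in the progesterone arrays against 28.5 and 30.1 with TGFb1 alone (0.76 ± 0.22, adjusted p = 0.0961). It passed with arrays scaled to a common trimmed mean and with median centring. Cyp1a1, the detoxifying enzyme gene used as the standard AHR readout, was at 0.53 (adjusted p = 0.324), Tiparp at 0.42 and the AHR partner Arnt at 0.29. Cyp1a1 passed the level filter through the progesterone arrays, with signals of 35.1 and 43.7 there against 30.3 and 15.7 with TGFb1 alone. Of 12 tested interleukin 1 pathway genes 1 fell, Il18r1, the interleukin 18 receptor chain, at -1.91 ± 0.28 (adjusted p = 0.00826), and the median was 0.076. That call was lost with no intensity trend in the variance model (adjusted p = 0.0695). Il1rn, the interleukin 1 receptor antagonist, was at 1.01 ± 0.25 (adjusted p = 0.0583). Its signals were 70.3 and 51.0 in the progesterone arrays against 25.8 and 18.2 with TGFb1 alone. Like Ccr6, Il1rn passed the level filter through the progesterone arrays. Of 7 tested clock and ROR-related genes 1 fell, Nfil3, a repressor of the Th17 programme in mouse T cells, at -1.04 ± 0.19 (adjusted p = 0.0203). It did not pass when TGFb1 replicate 2 was left out (adjusted p = 0.0680) or when progesterone replicate 1 or 2 was (0.0913 and 0.143). With no intensity trend Socs3, Batf, Irf4 and Nfil3 also lost their calls (adjusted p of 0.100, 0.0748, 0.124 and 0.0548), and with no filter Socs3, Irf4 and Nfil3 did (0.0733, 0.0531 and 0.0850).

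**Figure D4:**
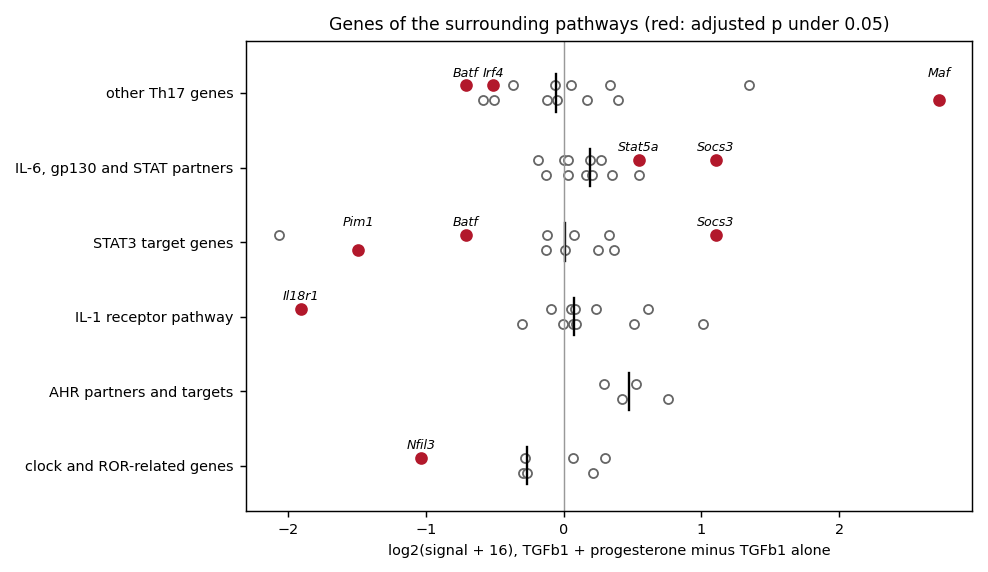
Log2 difference, TGFb1 plus progesterone minus TGFb1 alone, of each tested gene in the 6 pathway lists, by its brightest probe set. Red points passed limma at an adjusted p under 0.05, open points did not, and black bars are list medians, from -0.27 for the clock list to 0.47 for the AHR list.

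The probe sets most like the brightest Stat3 probe set over the 4 arrays, by the distance between log2 values centred on their mean, were those of Ubash3b, Rnft1, Arfgef2, Casd1 and Slc9a8. Their distances were 0.0105 to 0.0328, and their differences were 0.40 to 0.42, with limma adjusted p of 0.114 to 0.265. With 4 arrays such a likeness describes the values only.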

How the data were processed

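The deposited values are signal intensity per probe set on a linear scale, made by the authors with MAS5 per the submitters' processing notes, with no version or scaling given. No detection call was used, and the number of arrays, 4, limits the precision. Trimmed means (2% off each end) differed by 1.43 times, so arrays were quantile normalised and taken as log2(signal + 16). After 64 controls were dropped, the test was limma 3.58.1 (R 4.3.3, eBayes with an intensity trend) on 22518 of 45037 probe sets, those with a mean above the median, with Benjamini-Hochberg adjustment over all of them. Probe sets under that level have values from the fit without a filter. Genes came from the platform annotation, with symbols updated through a RefSeq table of GRCm38.p6. Promoter windows are RefSeq's.

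All member probe sets were named. Of the listed genes, those that passed are named, and up to 3 more per list by moderated statistic could be. Jak1, Jak2, Stat5b, Arnt, markers and genes under the filter were chosen after their values were seen. Members and lists were chosen with earlier results of these data known. The fit was tested on 20 simulated data sets, each with 200 changed probe sets. It recovered 6.79% of 1.5-fold, 37.5% of 2-fold and 88.3% of 4-fold changes, and 5.59% of its calls were false. The lack of a call therefore does not show that a gene was unchanged. Alternatives were other scalings, pseudocounts, filters and variance models, the replicate number as a block and leaving out each array.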

Additional observations from a re-analysis of the deposited data

How the results depend on the processing

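The count of member probe sets passing, 0, stayed at 0 in every setting except the robust variance model (1), 1 probe set per gene (1, chosen after seeing the data), the replicate block (2) and leaving out each array (0 to 1). Over all tested probe sets, passing counts were 289 up and 1313 down as deposited, and 737 up and 924 down, 44.4% up, at a common trimmed mean, against 39.1% up in the main setting and 18.0% as deposited. They were 539 (179 up, 360 down) with no filter, 481 (133 up, 348 down) with no intensity trend, 879 (322 up, 557 down) with 1 probe set per gene, where fewer were tested, and 532 down in the upper 25% by level. With the replicate number as a block they were 3122 (1497 up, 1625 down), Ahr 1422631_at (adjusted p = 0.0106) and Stat3 1426587_a_at (adjusted p = 0.00244) passed, and no listed pathway call was lost. That fit leaves 1 residual degree of freedom, so it leans on the variance prior, as does the fit to the deposited values, where the prior degrees of freedom were infinite. Same-numbered arrays deviated together at r = 0.17 across probe sets, and with 2 pairs that does not show that the numbers pair the samples. Leaving out each array gave 329 to 1748 (67 to 767 up, 262 to 981 down). The cause of these moves was not tested.

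As deposited the sign turned for Il6ra 1422270_a_at (-0.16) and 1452416_at (-0.14), Rora 1424034_at (-0.12), Il6st 1437303_at (-0.36) and 1460295_s_at (-0.31), and Stat3 1426587_a_at (-0.031) and 1460700_at (-0.23). At a common trimmed mean it turned for Il6st 1437303_at (-0.066) and 1460295_s_at (-0.022) and Rora 1455165_at (0.13). With median centring it turned for Il6st 1437303_at (-0.18) and 1460295_s_at (-0.13), Rora 1455165_at (0.055) and Stat3 1460700_at (-0.044). Leaving out each array gave ranges that cross 0 for Il6ra 1422270_a_at (-0.013 to 0.22), Il6st 1421239_at (-0.40 to 0.20), 1437303_at (-0.029 to 0.060) and 1460295_s_at (-0.12 to 0.14), and Rora 1424034_at (-0.050 to 0.069), 1436325_at (-0.088 to 0.29), 1455165_at (-0.046 to 0.045) and 1458129_at (-0.10 to 0.45). None of these values passed. The median of all tested probe sets was -0.16 as deposited and 0.10 at a common trimmed mean. In fits on 3 arrays the single array of a group is taken to vary as the pair does. Signals near the median of all probe sets limit what can be read for Il17a, Il1r1 and 3 Rora probe sets.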
